A study of Lactuca sativa with 18 samples.

Results

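The comparison set midribs of the romaine lettuce (Lactuca sativa) cultivar Tall Guzmaine (TG), which browns strongly, against midribs of Parris Island Cos (PC), which browns little, on day 0. Its members were the count columns of TG and PC labelled day 0, 2 libraries for each cultivar, which made 4 of the 18 samples of the series. The series also holds Clemente (CL), a line of medium browning selected from a cross of TG and PC, and later storage days. All heads shared the same handling: they were cooled after harvest, trucked under refrigeration and held in a cold room before the green blade was cut away and the ribs were cut by hand into pieces. Day 0 samples were frozen without the cold storage of the cut pieces that day 3 samples received. Each cultivar stands for its browning class alone, so browning class and any other trait of these cultivars cannot be told apart. The labels call the tissue midrib, with ribs sampled from all parts of a head, and leave unsaid if different heads gave the 2 libraries of a group. The p-values therefore cover the spread among libraries alone, which may be technical. That spread was estimated jointly from all 12 day 0 and day 3 libraries, Clemente included, and not from the 4 compared libraries alone.

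Enzymatic browning of cut lettuce begins when cutting brings phenolic compounds of the vacuole together with polyphenol oxidase, which turns them into quinones that polymerise to brown pigments. The phenolics come from the phenylpropanoid pathway, whose first step is catalysed by phenylalanine ammonia-lyase, and chlorogenic and caffeic acid derivatives are prominent among them in lettuce. Peroxidases can also oxidise these compounds, while ascorbate and other antioxidants hold the reaction back. The midrib is rich in vascular tissue and browns visibly at its cut faces. The name table used here pairs gene identifiers with symbols and RNA classes but not with protein products, apart from 2 genes with an enzyme synonym, so lists of browning genes and of midrib cell types were not analysed here and the genes below are given by identifier.

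The 4 libraries held 35603537 to 53100534 counts, and the day 0 and day 3 libraries together 35603537 to 59153901. Over the 16048 genes with a mean of at least 1 CPM (counts scaled by library size) in these 4 libraries, the median gene differed between replicates by 0.32 on the log2 scale in TG and by 0.34 in PC. Between a TG and a PC library the median difference was 0.54 to 0.76, and 27.9% to 40.1% of these genes differed more than 2-fold, against 12.5% and 13.1% between the replicates of TG and PC. PC replicate 2 lay farther from both TG libraries, at 0.69 and 0.76, than PC replicate 1, at 0.54 and 0.58. Because these are bulk samples, a lower level can reflect fewer cells of a type or less RNA per cell, which cannot be told apart.

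TG and PC differed widely on day 0. Of 21757 genes tested, 30.4% passed the threshold of an adjusted p of 0.05 (edgeR quasi-likelihood test with Benjamini-Hochberg adjustment), 3752 of them higher and 2857 lower in TG, or 17.2% and 13.1% of all genes tested. Both TG libraries lay above both PC libraries for 32.6% of the genes and below them for 31.7%. Differences of at least 2-fold were called for 2699 genes higher and 2102 lower in TG, and differences of at least 8-fold for 905 and 704. The share of genes called rose with level, from 11.6% of the genes under a mean of 1 CPM to 30.8% between 1 and 10, 39.7% between 10 and 100 and 44.9% at 100 CPM and over. Among the genes at 100 CPM and over, 677 were higher and 294 lower in TG, while between 1 and 10 CPM the numbers were 906 and 950. The split depends on scaling: without a scaling factor 2902 genes were higher and 3968 lower in TG, and the median log2 fold change of all genes moved from 0.00 to -0.19. The count also fell when any 1 of the 4 libraries was left out, most without PC replicate 2. Such a fit leaves 1 library in a group, which then has no spread of its own. A fit to TG and PC without Clemente gave 2873, 1529 higher and 1344 lower.

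**Figure D1:**
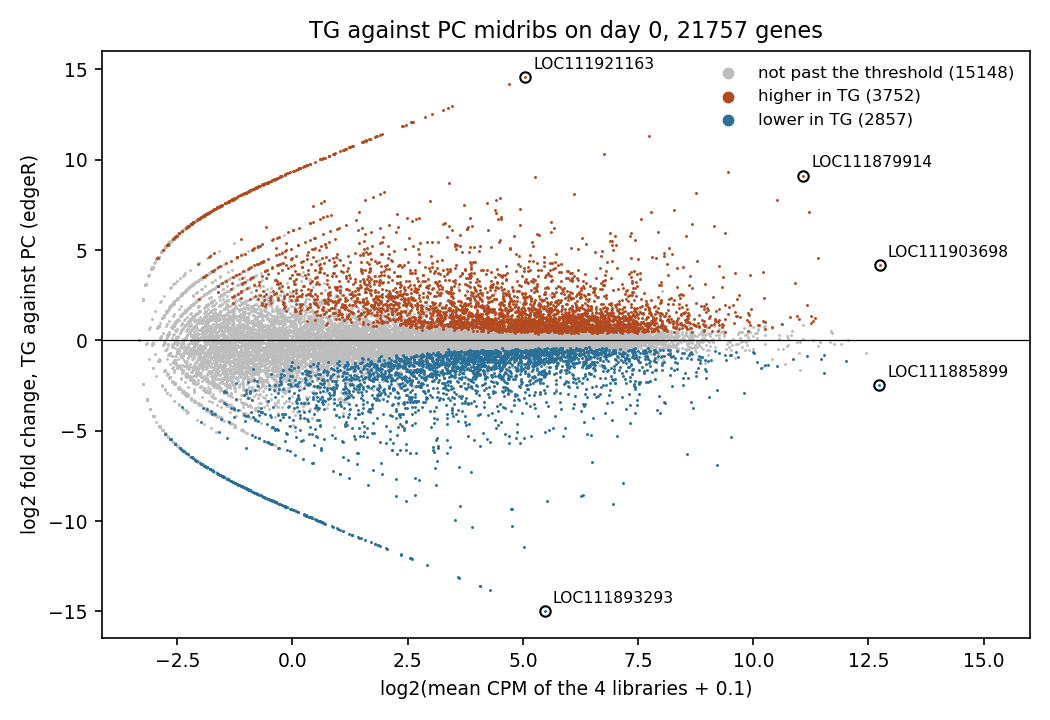
Each point is 1 of 21757 genes on day 0, with the log2 of the mean level over the 4 libraries (CPM plus a pseudocount of 0.1) on the horizontal axis and the fitted log2 fold change of TG against PC on the vertical axis. The 3752 genes higher in TG and the 2857 lower in TG are coloured, 5 named genes are circled, and the outer curved bands are genes with 0 counts in 1 cultivar, whose fitted values depend on the prior count.

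The called genes carried a large part of each library. The 3752 genes higher in TG took up 37.9% and 42.0% of all counts in the TG libraries, 18.8% and 14.8% in PC and 45.5% and 42.2% in Clemente. The 2857 genes lower in TG took up 8.52% and 7.53% in TG, 21.4% and 25.9% in PC and 6.99% and 7.72% in Clemente. These genes were chosen on the same TG and PC libraries, so the TG and PC shares are a description. The replicates of PC were not equally far out: PC replicate 2 was below PC replicate 1 for 75.1% of the genes higher in TG, against 49.8% of all genes tested, and above it for 75.1% of the genes lower in TG, against 46.7% of all.

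Among genes higher in TG by the largest fold, several were read in every TG library and hardly at all in PC. LOC111879914, a protein-coding gene, stood at 4646 and 3979 CPM in the TG libraries and at 14.3 and 1.16 CPM in the PC libraries. The groups lay far apart, although the PC replicates themselves differed widely. The fitted difference was large (log2 fold change 9.12, SE 1.07, adjusted p = 0.00036, edgeR), and it was 11.85 without PC replicate 1 and 8.23 without PC replicate 2. LOC111919126 stood at 1317 and 1473 CPM in TG and at 3.89 and 0.385 CPM in PC (log2 fold change 9.34, SE 1.36, adjusted p = 0.00108). Its neighbour LOC111919125 stood at 463 and 393 CPM in TG against 0.325 CPM in PC replicate 1 and 0 counts in PC replicate 2 (log2 fold change 11.32, SE 1.74, adjusted p = 0.00138). For this pair of genes PC replicate 2 was again the lower one, and the log2 fold changes without PC replicate 1 and without PC replicate 2 were 11.79 and 8.48 for LOC111919126 and 17.26 and 10.35 for LOC111919125. LOC111881685 stood at 220.2 and 210.4 CPM in TG and at 0.0927 and 0.241 CPM in PC (log2 fold change 10.32, SE 0.72, adjusted p = 5.36e-05, and 11.13 without PC replicate 2). Its TG libraries were close to each other and no PC library came near them.

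Another 4 of the named genes had 0 counts in both PC libraries. LOC111921163 stood at 64.2 and 67.5 CPM in TG, at least 928-fold above PC when PC is set at a floor of 3 counts per library. GeneID_111886954, which the name table does not hold, stood at 26.5 and 17.4 CPM, at least 309.6-fold above PC, and LOC111883319 at 20.1 and 21.2 CPM, at least 291-fold above PC. These 3 genes had 0 counts in the day 3 libraries of PC as well. LOC111908018 differed between its TG replicates, at 11.04 and 91.7 CPM, and its bound of at least 725-fold therefore rests on TG replicate 2. Its fitted log2 fold change of 14.20 (a value set in part by the prior count) came to 15.02 without TG replicate 1 and 11.98 without TG replicate 2. The adjusted p-values of these 4 genes ran from 6.15e-06 to 0.00145 (edgeR). Of the counts of 100 or more, 69.8% to 71.7% per library were even, and if both mates of a read pair were counted, these bounds lie too high.

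The 8 genes lower in TG by the largest fold were read in PC and at 0 to 2 counts in TG. LOC111893293, annotated as a pseudogene, stood at 97.8 and 79.1 CPM in the PC libraries and at 0 counts in both TG libraries, at least 1424-fold higher in PC. A second pseudogene, LOC111885247, stood at 23.1 and 24.8 CPM in PC against 0 counts in TG, at least 385-fold higher in PC. In both, the PC replicates were close together. Long noncoding RNAs, which are transcripts without a recognised protein, made up 3 of the 8: LOC111891878 at 28.5 and 38.7 CPM, LOC111878188 at 19.7 and 29.1 CPM and LOC111891093 at 28.4 and 30.5 CPM in PC. The first and second had 0 counts in TG, and LOC111891093 had 2 counts, both in TG replicate 1, for a ratio of 1430.3 with a 95% exact (Clopper-Pearson) interval of 396 to 11817 that covers counting error only. GeneID_111888072 likewise had 2 counts in TG replicate 1 and stood at 57.5 and 72.8 CPM in PC, a ratio of 3158 with an interval of 874 to 26084. If both mates of a read pair were counted, both intervals are too narrow. The fitted log2 fold changes of these last genes, -10.31 and -11.45, were -13.38 and -14.52 without TG replicate 1 and -9.50 and -10.65 without TG replicate 2.

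The other 2 genes lower in TG coded for proteins and parted on day 3. LOC111889655 stood at 35.4 and 41.9 CPM in PC on day 0 and at 31.8 and 33.7 CPM on day 3, with 0 counts in TG on day 0 and 0.193 CPM in a single TG library on day 3. LOC111902135 stood at 22.1 and 44.6 CPM in PC on day 0, at least 537-fold above the 0 counts of TG, but at only 0.143 and 0.362 CPM in PC on day 3. The level of LOC111902135 in PC was thus high on day 0 and near 0 on day 3, while that of LOC111889655 was of the same size on both days. The adjusted p-values of the 8 genes on day 0 ran from 6.15e-06 to 0.0002 (edgeR).

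**Figure D2:**
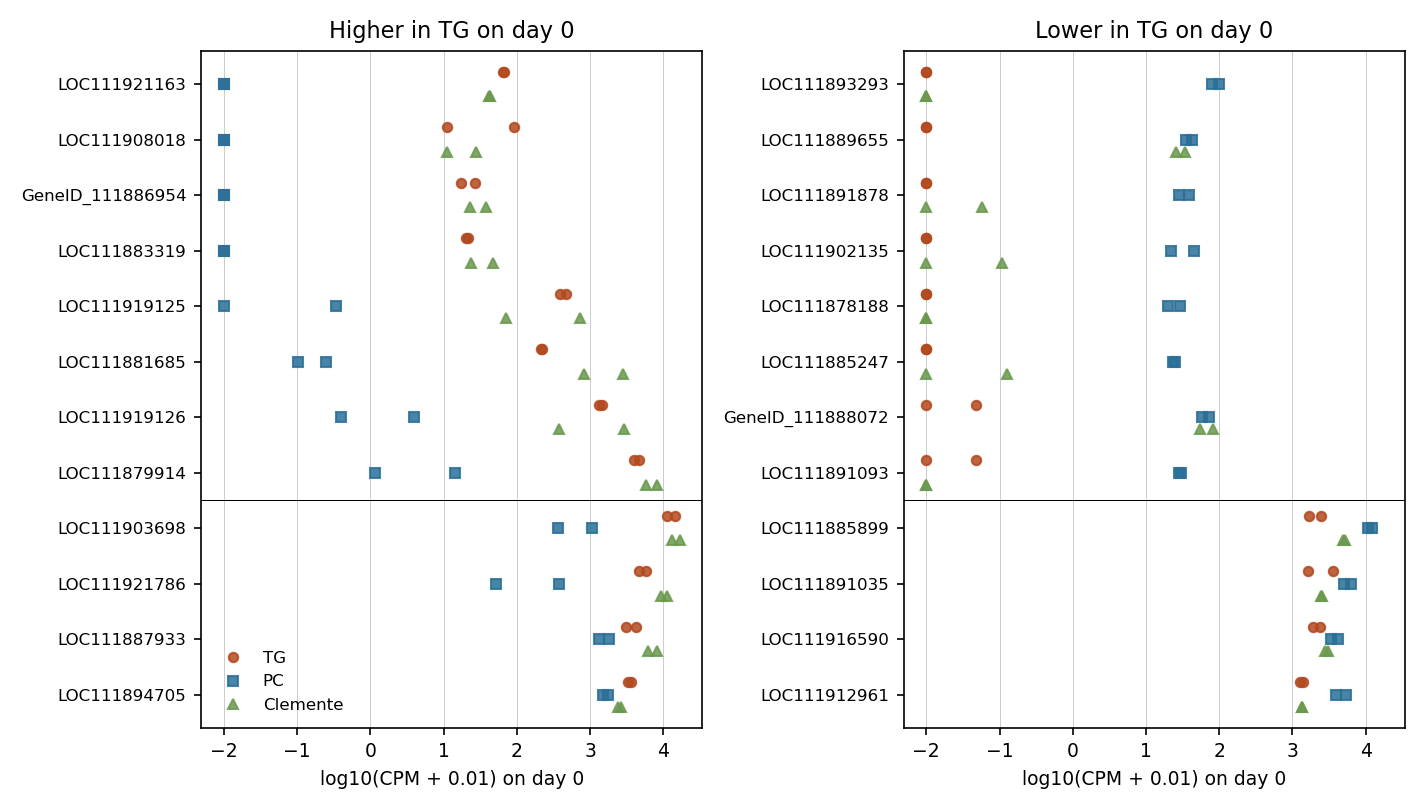
Levels of the 24 genes named by size of change (above the line) and by level (below the line) on day 0, as log10 of CPM plus 0.01, with 1 point for each library of TG, PC and Clemente, so that 0 counts stand at -2. In the panel of genes higher in TG the Clemente libraries lie on the TG side throughout, and in the panel of genes lower in TG they lie near TG for most genes and near PC for LOC111889655 and GeneID_111888072.

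Among the most counted genes that passed the test, ranked by counts and not per length, 4 higher and 4 lower in TG were taken. All named genes had to have libraries that did not overlap between the cultivars. That property was thus fixed by the choice, here and in the genes lower in TG below. LOC111903698 stood at 14578 and 11393 CPM in TG and at 1070.1 and 368 CPM in PC (log2 fold change 4.18, SE 0.46, adjusted p = 0.000198, edgeR). LOC111921786 stood at 5773 and 4616 CPM in TG and at 381 and 52.1 CPM in PC (log2 fold change 4.58, SE 0.75, adjusted p = 0.0019). In both genes PC replicate 2 was the lowest library. The log2 fold change was 5.13 without PC replicate 1 for LOC111903698, and for LOC111921786 it was 6.62 without PC replicate 1 and 3.76 without PC replicate 2. LOC111887933, at 4176 and 3069 CPM in TG and 1798 and 1305 CPM in PC (log2 fold change 1.22, SE 0.27, adjusted p = 0.00757), and LOC111894705, at 3602 and 3308 CPM and 1742 and 1481 CPM (log2 fold change 1.10, SE 0.22, adjusted p = 0.00503), differed a little over 2-fold. Each TG library lay above each PC library for both, as the choice required. Both lost the call in 1 of 12 alternatives, the 4-library fit, with adjusted p-values of 0.063 and 0.0542 (edgeR).

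In the other direction, LOC111885899 stood at 1659.6 and 2448 CPM in TG and at 12313 and 10589 CPM in PC (log2 fold change -2.48, SE 0.25, adjusted p = 0.000157, edgeR). LOC111912961 stood at 1401 and 1278 CPM in TG and at 3931 and 5323 CPM in PC (log2 fold change -1.79, SE 0.22, adjusted p = 0.00036). Both were higher in each PC library than in any TG library and passed the threshold under all 12 alternatives. LOC111891035 stood at 3545 and 1621 CPM in TG and 5054 and 6315 CPM in PC (log2 fold change -1.14, SE 0.36, adjusted p = 0.0362), and LOC111916590 at 1936 and 2382 CPM and 4245 and 3394 CPM (log2 fold change -0.82, SE 0.22, adjusted p = 0.0197). LOC111891035 passed under 8 of 12 alternatives: its adjusted p was 0.172 without TG replicate 2, 0.149 without PC replicate 2, 0.144 without Clemente and 0.0552 with the replicate block (edgeR). LOC111916590 passed under 9, with an adjusted p of 0.0994 without TG replicate 1, 0.0626 without PC replicate 1 and 0.108 without Clemente (edgeR). Without TG replicate 1, its higher TG library, the log2 fold change of LOC111891035 was -1.81.

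Of the 2 genes whose synonyms name an enzyme, 1 passed and was a little higher in TG. LOC111889525, triose-phosphate isomerase, which interconverts the triose phosphates of glycolysis and the Calvin cycle, stood at 473 and 519 CPM in TG and 336 and 289 CPM in PC (log2 fold change 0.66, SE 0.16, adjusted p = 0.0117, edgeR). It passed the threshold under 8 of 12 alternatives, with an adjusted p of 0.0588 without TG replicate 2, 0.072 without PC replicate 2, 0.0527 without a scaling factor and 0.117 without Clemente (edgeR). LOC111883376, a cytosolic glutamine synthetase, which fixes ammonium into glutamine, stood at 741 and 736 CPM in TG and 593 and 562 CPM in PC and did not pass (log2 fold change 0.35, SE 0.17, adjusted p = 0.133). In both genes each TG library lay above each PC library, as for 32.6% of all genes tested.

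A group of genes had 0 counts in both libraries of 1 cultivar and a mean of at least 2 CPM in the other, a limit chosen after the values had been seen. There were 65 such genes at 0 counts in PC and 60 at 0 counts in TG. In the main fit all passed the threshold on day 0 except LOC111896886, which was at 0.0761 and 12.5 CPM in the TG libraries. The choice of genes fixes this direction, and the count is a description beside the 30.4% of all genes. Several of them did not pass with DESeq2. Among these were LOC111887902, higher in TG (adjusted p = 0.121, DESeq2), and LOC111903746, lower in TG (adjusted p = 0.117, DESeq2). Protein-coding genes made up 44 of the 65 and 34 of the 60, long noncoding RNAs 11 and 13, pseudogenes 1 and 3, and 9 and 10 were not in the name table. The numbers depend on how many libraries must be at 0: without PC replicate 1 there were 150 genes at 0 in PC, and without TG replicate 1 there were 106 at 0 in TG.

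Day 3 libraries, which this choice did not use, separated these genes into those still missing and those read later. Of the 65 genes at 0 counts in PC on day 0, 38 were at 0 counts in PC on day 3 too, and 33 of these stood at 1 CPM or more in TG on day 3. Of the 60 genes at 0 counts in TG, 48 were at 0 counts in TG on day 3, 31 of them with PC at 1 CPM or more. Among the genes read later, LOC111908135 was at 0 counts in PC on day 0 and at 144 and 124 CPM on day 3, with TG at 9.55 and 2.64 CPM on day 0 and 11.7 and 37.4 CPM on day 3. In the other direction the highest was LOC111914292, at 0 counts in TG on day 0 and 2.43 and 4.98 CPM on day 3, beside 3.76 and 10.4 CPM and 3.17 and 3.09 CPM in PC. Clemente, read as expressed where both of its libraries reached 10% of the expressing parent, expressed 46 of the 65 genes on day 0 and 18 of the 60.

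Some of these genes were neighbours in the order of the name table. LOC111883318, a long noncoding RNA, and LOC111883319 stood side by side and were both at 0 counts in PC on both days, with TG at 1.60 and 2.42 CPM and 20.1 and 21.2 CPM on day 0. The pseudogene LOC111885247, at 0 counts in TG on both days, stood next to LOC111885246, at 2.06 and 2.28 CPM in TG and 0 counts in PC, so that each cultivar expressed a different gene of the pair. Clemente had 1.06 and 0.862 CPM of LOC111885246 and 0 and 0.115 CPM of LOC111885247. Another pair at 0 counts in TG on both days was LOC111908473 with the long noncoding RNA LOC111908487, at 0.927 and 3.40 CPM and 15.2 and 14.7 CPM in PC on day 0. Clemente read LOC111908487 at 12.4 and 8.76 CPM and LOC111908473 at 0.242 and 0.460 CPM. Whether reads of near-identical copies were split between such neighbours was not tested.

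By RNA class, calls were most frequent among protein-coding genes, of which 3539 were higher and 2568 lower in TG out of 19259 tested, or 31.7%, with a median log2 fold change of 0.03. Of 1184 long noncoding RNAs, 86 were higher and 144 lower in TG, or 19.4%, with a median of -0.27, and of 318 pseudogenes 38 were higher and 45 lower, or 26.1%, with a median of -0.40. Without a scaling factor the protein-coding genes divided into 2717 higher and 3599 lower. The same share over all genes was 30.4%, with a median of 0.00. Long noncoding RNAs were also read less, at a median of 0.981 CPM against 10.4 CPM for protein-coding genes, and weakly read genes were called less often in this comparison. Small nucleolar RNAs, which guide the modification of ribosomal RNA, gave 3 genes higher and 9 lower of 128, and 0 of 5 ribosomal, 19 small nuclear and 11 transfer RNAs passed. Without PC replicate 2 the long noncoding RNAs fell to 46 higher and 68 lower, the small nucleolar RNAs to 1 and 0 and the protein-coding genes to 2124 and 1424, and without TG replicate 2 the long noncoding RNAs lower in TG were 75 and the pseudogenes lower in TG 24, against 22 without PC replicate 2.

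The 3 most counted long noncoding RNAs were all lower in TG. LOC111899827 stood at 861 and 512 CPM in TG and 1789 and 1739 CPM in PC (log2 fold change -1.36, SE 0.30, adjusted p = 0.00717, edgeR). LOC111910599 stood at 633 and 428 CPM in TG and 797 and 1026 CPM in PC (log2 fold change -0.78, SE 0.22, adjusted p = 0.0214), and LOC111890283 at 109 and 83.0 CPM and 208 and 192 CPM (log2 fold change -1.06, SE 0.16, adjusted p = 0.000993). In each of these genes both TG libraries lay below both PC libraries, as for 31.7% of all genes tested. The call of LOC111910599 was lost without TG replicate 2 or PC replicate 2, where its log2 fold change was -0.53 and -0.59. It was also lost without Clemente, with an adjusted p of 0.143 (edgeR). In the last fit LOC111899827 did not pass either, with an adjusted p of 0.0533 (edgeR). As a class, long noncoding RNAs took up 0.654% and 0.535% of the counts in the TG libraries, 0.852% and 0.967% in PC and 0.585% and 0.470% in Clemente. Ribosomal RNA took up 0.704% and 0.388% in TG and 0.715% and 0.706% in PC, with TG replicate 1 just under the lower PC library. Of the 3 most counted pseudogenes 2 were higher in TG: LOC111911396 at 520.0 and 618 CPM in TG and 245 and 182 CPM in PC (log2 fold change 1.41, SE 0.19, adjusted p = 0.000625), and LOC111885458 at 219 and 292 CPM and 56.5 and 55.6 CPM (log2 fold change 2.19, SE 0.23, adjusted p = 0.000174). In both, each TG library lay above each PC library, as for 32.6% of all genes tested. The other, LOC111913512, stood at 161 and 18.7 CPM in TG and 148 and 245 CPM in PC and did not pass (log2 fold change -1.13, SE 0.87, adjusted p = 0.366). A pseudogene can share reads with the gene it was copied from, and these levels are uncertain for that reason.

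The gene next to one that differed was called in the same direction more often than placed genes at large, although most next genes were not. Of 20935 tested genes placed on the 9 nuclear chromosomes of the RefSeq assembly Lsat_Salinas_v11, 4.08% were called at least 8-fold higher in TG and 3.15% at least 8-fold lower. Among the genes at least 8-fold higher that had a next gene without overlap, 112 of 843, or 13.3%, were followed by another such gene, and among those at least 8-fold lower 62 of 652, or 9.51%. A gene of the opposite direction followed in 4.15% and 3.99%, near the background of 3.15% and 4.08%. For the genes at least 8-fold lower, the share followed by another such gene was 6.08% without PC replicate 2 and 6.31% without TG replicate 1. With all libraries it was 9.51%. The matching share of all placed genes was not computed for those fits, so a change in the excess over it cannot be read from these values. With no limit on size, the next gene was called in the same direction for 21.7% of the higher genes, against 17.5% of all placed genes, and for 15.97% of the lower genes, against 13.2%. Neighbouring copies of 1 gene can share reads, and the strand setting of the counting is not given, so neighbours are not independent measurements.

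Runs of at least 4 neighbouring genes called at least 2-fold in the same direction numbered 20 among the higher genes, with 88 genes, and 11 among the lower genes, with 51 genes, where 12.5% and 9.65% of placed genes met that limit. In the 4-library fit there were 7 and 3 runs, and without a scaling factor 14 and 16. Fewer runs were found without PC replicate 2, TG replicate 1 or TG replicate 2. Without PC replicate 1 there were more higher and fewer lower runs. The runs below have at least 6 genes, or 4 genes with a member of at least 500 CPM in 1 cultivar, a choice made after their values had been seen.

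In the run of LOC111920811, LOC111920812, LOC111920813 and LOC111920814 every gene was higher in TG. The highest of them, LOC111920812, stood at 3816 and 5605 CPM in TG and at 64.9 and 2.41 CPM in PC (log2 fold change 7.13, SE 1.45, adjusted p = 0.00548, edgeR). LOC111920814 stood at 504 and 182 CPM in TG and 50.3 and 13.4 CPM in PC, LOC111920811 at 34.4 and 52.6 CPM and 1.76 and 0.193 CPM, and LOC111920813 at 6.66 and 5.42 CPM and 0.371 and 0.144 CPM. The TG libraries lay above the PC libraries for all 4 genes, as for 32.6% of all genes tested. For each of the 4, PC replicate 2 was the lowest library. The size rests on it: the log2 fold change of LOC111920812 was 10.91 without PC replicate 1 and 6.18 without PC replicate 2. Without PC replicate 1 it was 7.78 for LOC111920811, fitted at 5.46, 5.34 for LOC111920813, fitted at 4.53, and 4.66 for LOC111920814, fitted at 3.43 and at 2.51 without TG replicate 1. On day 3 the TG and PC libraries of LOC111920812 stood at 273 and 1794 CPM and 462 and 484 CPM, and 0 of the 4 genes passed the threshold on that day.

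The run of LOC111919146, LOC111919124, LOC111919125 and LOC111919126 includes 2 of the genes named above. LOC111919124 stood at 732 and 740.1 CPM in TG and 15.9 and 10.5 CPM in PC (log2 fold change 5.80, SE 0.997, adjusted p = 0.00238, edgeR), and LOC111919146 at 13.9 and 38.1 CPM and 3.13 and 0.963 CPM (log2 fold change 3.66, SE 0.55, adjusted p = 0.00126). Without PC replicate 1 and without PC replicate 2 the log2 fold change of LOC111919146 was 4.73 and 3.05, and without TG replicate 2 it was 2.76. All 4 genes stayed past the threshold without any 1 of the 4 libraries. Clemente replicates differed here, at 2890.4 and 380.1 CPM for LOC111919126 and 1823 and 321 CPM for LOC111919124, and both lay above PC. On day 3 the PC libraries stood at 529 and 252 CPM for LOC111919126 and the TG libraries at 541 and 1125 CPM, and 0 of the 4 genes passed on that day.

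A further run, LOC111901956, LOC111901914, LOC111901912 and LOC111901911, parted in its day 3 values. LOC111901911 stood at 631 and 1101 CPM in TG and 4.17 and 1.88 CPM in PC on day 0 (with a log2 change of 8.16, SE 0.51, adjusted p = 2.16e-05, edgeR), and at 646 and 1009 CPM against 16.7 and 14.2 CPM on day 3 (with a log2 change of 5.74, SE 0.45, adjusted p = 0.000222). LOC111901912 stood at 694 and 1542 CPM in TG and 19.7 and 8.38 CPM in PC on day 0 (with a log2 change of 6.32, SE 0.51, adjusted p = 7.41e-05), but at 2418 and 2892 CPM and 2901 and 2899 CPM on day 3. LOC111901914 stood at 323 and 903 CPM and 7.14 and 1.20 CPM on day 0 (with a log2 change of 7.20, SE 0.84, adjusted p = 0.000352) and at 4856 and 4195 CPM and 1095 and 1121 CPM on day 3. Thus LOC111901911 was far lower in PC on both days, LOC111901912 was level between the cultivars on day 3, and LOC111901914 was in between. Its day 3 difference did not pass in the fit of all 12 libraries (adjusted p = 0.264, edgeR). It did in a fit to the 4 TG and PC libraries of day 3 alone (log2 fold change 2.03, adjusted p = 0.000636, edgeR) and with DESeq2 (2.04, adjusted p = 0.0223). The fourth gene, LOC111901956, was weakly read on day 0, at 0.152 and 0.336 CPM in TG and 0 counts in PC, and stood at 3.66 and 3.15 CPM and 3.71 and 2.991 CPM on day 3. Without any 1 of the 4 day 0 libraries the day 0 log2 fold changes of these 4 genes were 5.62 to 8.97. In the 4-library fit 3 of the 4 passed. The log2 fold change of LOC111901914 was 8.97 without PC replicate 1, 6.42 without PC replicate 2 and 6.27 without TG replicate 2. That of LOC111901912 was 7.04 without PC replicate 1 and 5.62 without TG replicate 2, and that of LOC111901911 was 8.83 without PC replicate 1.

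The longest run had 7 genes lower in TG, from LOC111903746 to LOC111903735. TG had 0 counts of 6 of them, and PC stood at 2.43 and 5.68 CPM for LOC111903746 and at 0.649 and 2.50 CPM for LOC111903740. LOC111903735, at 0.190 and 1.03 CPM in TG and 2.76 and 7.08 CPM in PC, was the exception with counts in both cultivars. PC replicate 2 was the higher PC library throughout, and the run is fragile. Of the 7 genes 6 passed in the 4-library fit, 4 with DESeq2 and 4 with the replicate block. Most of the calls were lost without TG replicate 1, TG replicate 2 or PC replicate 2, though not without PC replicate 1. Those fits leave 1 library in a group. The log2 fold change of LOC111903735, fitted at -3.02, was -2.19 without PC replicate 2. Without TG replicate 1 it was -2.25, and without TG replicate 2 it was -4.68. Both runs of 6 genes higher in TG went from LOC111883706 to LOC111883742 and from LOC111911318 to LOC111911331. Each kept its 6 genes with DESeq2 and with the replicate block, and 5 without a scaling factor. In the 4-library fit the first kept 5 and the second 4. In the first, LOC111883704 stood at 12.5 and 27.04 CPM in TG and 0.742 and 1.78 CPM in PC, and in the second LOC111911318 stood at 38.3 and 52.7 CPM and 6.54 and 2.02 CPM. Without PC replicate 1 and 2 the log2 fold change of LOC111911318, fitted at 3.41, was 4.47 and 2.79, and that of LOC111883704, fitted at 3.97, was 3.30 without TG replicate 2 and 4.73 without PC replicate 2. Neither run had a gene past the threshold on day 3.

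Another 2 runs of 4 genes were higher in TG and were read in TG replicate 2 well above TG replicate 1. In the run from LOC111887363 to LOC111892410, LOC111892410 stood at 234 and 725 CPM in TG and 14.0 and 0.698 CPM in PC, and LOC111887371 at 76.9 and 229 CPM and 5.52 and 0.530 CPM. Without any 1 of the 4 libraries the log2 fold changes of the 4 genes were 3.36 to 9.40. In the 4-library fit 1 of them passed, with adjusted p-values of 0.0507 for LOC111887363, 0.053 for LOC111892389 and 0.0549 for LOC111892410 (edgeR). On day 3 LOC111892410 stood at 279.6 and 257 CPM in TG and 313 and 191 CPM in PC. In the run from LOC111896412 to LOC111896402, LOC111896412 stood at 124 and 463 CPM in TG and 32.3 and 13.8 CPM in PC, and LOC111896419 at 15.3 and 44.0 CPM and 5.19 and 0.771 CPM. Of its 4 genes 1 passed in the 4-library fit. The log2 fold changes of the 4 genes, fitted at 1.51 to 3.67, were 0.85 to 2.43 without TG replicate 2 and 1.03 to 3.18 without PC replicate 2. They were 1.955 to 4.33 without TG replicate 1 and 2.19 to 5.24 without PC replicate 1. On day 3 LOC111896412 stood far higher in both cultivars, at 1385 and 1153 CPM in TG and 1451 and 1264 CPM in PC. No gene of either run passed on that day in the fit of all 12 libraries. LOC111887363 did in the fit to the 4 TG and PC libraries of day 3 alone (log2 fold change 0.99, adjusted p = 0.00913, edgeR).

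**Figure D3:**
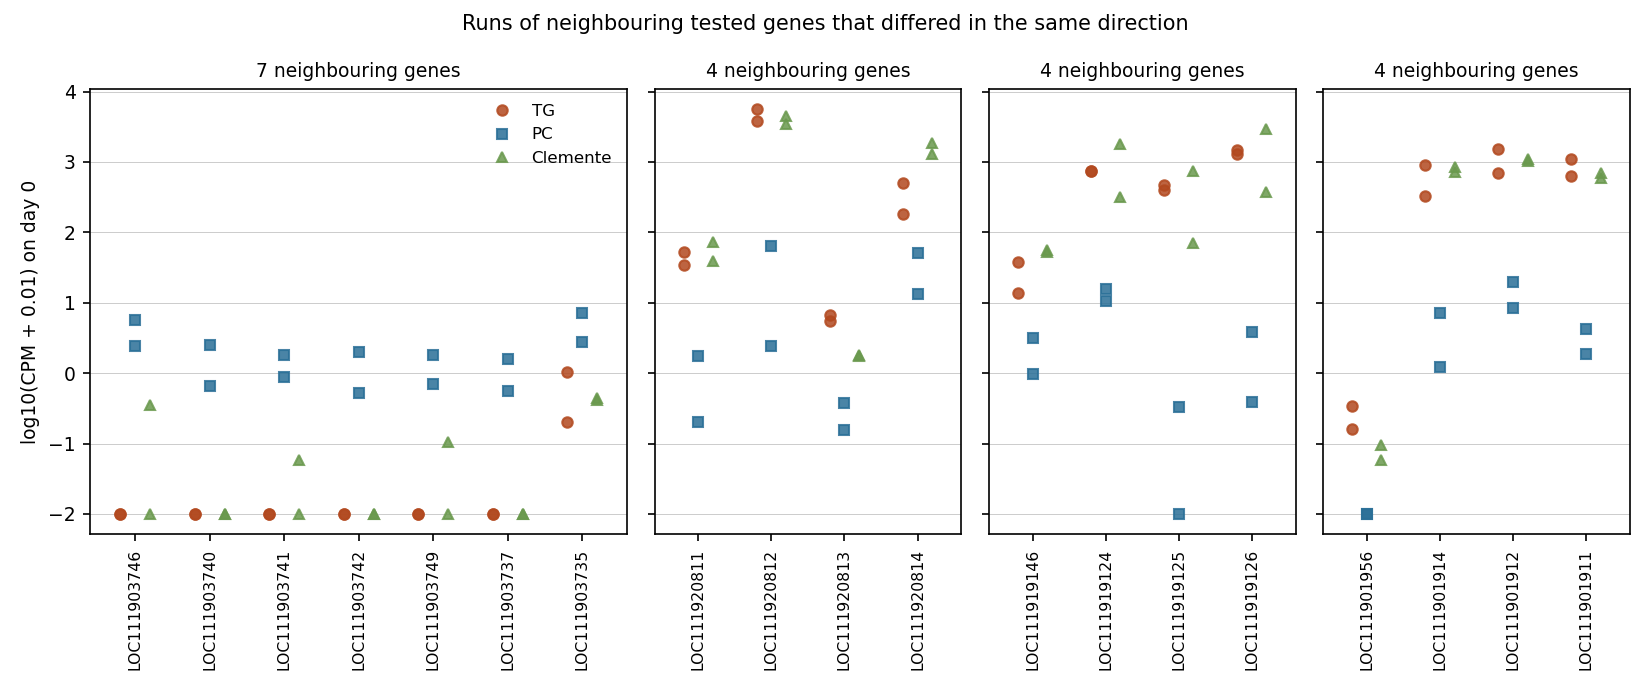
Levels on day 0 of 4 runs of neighbouring genes in the order of the name table, as log10 of CPM plus 0.01, with 1 point for each library. The run of 7 genes is at 0 counts in TG for 6 genes, and in each of the 3 runs of 4 genes every TG library lies above every PC library.

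The genes around LOC111879914 did not form a run and went in both directions. LOC111905498, a long noncoding RNA, had 0 counts in TG and stood at 1.37 and 1.76 CPM in PC, while LOC111905497 stood at 94.1 and 86.0 CPM in TG and 44.1 and 27.7 CPM in PC (log2 fold change 1.33, SE 0.20, adjusted p = 0.00118, edgeR). On the other side, LOC111879916 had 0 counts in TG and 0.139 and 0.193 CPM in PC, and the long noncoding RNA LOC111879917 had 0.628 and 0.559 CPM in TG and 0 counts in PC. The last pair is weakly read: LOC111879916 did not pass without TG replicate 1, TG replicate 2 or PC replicate 2, with adjusted p-values of 0.0712, 0.0669 and 0.0644, nor LOC111879917 without PC replicate 2, with an adjusted p of 0.0583 (edgeR). On day 3 LOC111879916 stood at 0.116 and 0.664 CPM in TG and 6.53 and 9.60 CPM in PC, and LOC111879914 at 4384 and 4302 CPM and 29.6 and 19.0 CPM, the same order as on day 0.

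On day 3, in other libraries of the same cultivars, 1.45% of the genes tested passed the threshold between TG and PC, 157 higher (0.722%) and 159 lower (0.731%) in TG, and 2431 had an unadjusted p under 0.05. Without PC day 3 replicate 1 or 2 it was 135 or 126 genes, and 179 or 176 without the first or second TG library of day 3. Other fits gave more. A separate fit to the 4 TG and PC libraries of day 3 alone gave 889, beside 2873 in the 4-library fit of day 0. DESeq2 gave 834, beside 7842 on day 0. The replicates on day 3 were closer, with a median log2 difference of 0.24 in TG and 0.20 in PC, and a TG and a PC library differed by 0.25 to 0.33. Of the genes higher in TG on day 0, 61.0% had the same sign on day 3 and 133 passed there in the same direction, or 3.54% of the day 0 list and 84.7% of the day 3 list. Of the genes lower in TG on day 0, 58.2% had the same sign and 132 passed, or 4.62% and 83.0%. The median log2 fold change was 1.59 on day 0 and 0.09 on day 3 for the higher genes and -1.65 and -0.09 for the lower ones, where the day 0 values are those the genes were chosen on. The genes called on both days numbered 55 and 62 without PC day 3 replicate 2, and 62 and 63 without its replicate 1. Leaving out TG libraries of day 3 gave 84 and 65 without replicate 2 and 94 and 67 without replicate 1.

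The difference of the 2 contrasts was tested in the same model and passed for 12.2% of the genes, 1617 with a more positive and 1035 with a more negative value on day 0. With library totals as the sole scaling it was 1342 against 1372. The number of genes was 1007 and 1186 without PC day 3 replicates 1 and 2, and 1409 and 1378 without those of TG. Leaving out the second day 0 library gave 1611 for PC and 1706 for TG. The abundant LOC111903698, log2 fold change 3.37, SE 0.58, adjusted p = 0.00696 for day 0 minus day 3, stood at 3966 and 4869 CPM in TG and 2598 and 2461 CPM in PC on day 3. LOC111885899 stood at 1051 and 797 CPM and 1504 and 1706 CPM on day 3 (with a log2 change of -1.68, SE 0.34, adjusted p = 0.0124 for the difference, edgeR). In each of them the cultivars were closer on day 3. For LOC111903698 the TG level was lower than on day 0 and the PC level higher. On day 0 it had stood at 14578 and 11393 CPM in TG and 1070.1 and 368 CPM in PC. For LOC111885899 both levels were lower than on day 0, from 1659.6 and 2448 CPM in TG and 12313 and 10589 CPM in PC. LOC111879914 stood at nearly the same level in TG on both days, while PC stood at 14.3 and 1.16 CPM on day 0 and 29.6 and 19.0 CPM on day 3, and the difference of its contrasts did not pass (log2 fold change 1.64, SE 1.08, adjusted p = 0.354), although without PC day 0 replicate 1 it did, with an adjusted p of 0.00028 (edgeR). That of LOC111885899 did not pass without PC day 3 replicate 1, with an adjusted p of 0.0618 (edgeR).

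A few genes passed in opposite directions on the 2 days. There were 7, and their number ran from 0 to 29 without single libraries: 0 and 1 without PC day 3 replicates 1 and 2, 3 and 2 without TG day 3 replicates 1 and 2, 29 and 12 without TG day 0 replicates 1 and 2, and 23 and 18 without PC day 0 replicates 1 and 2. LOC111901930 stood at 63.3 and 32.7 CPM in TG and 128 and 148 CPM in PC on day 0 (with a log2 change of -1.52, SE 0.35, adjusted p = 0.00963, edgeR), and at 25.6 and 26.0 CPM and 3.92 and 5.74 CPM on day 3 (with a log2 change of 2.42, SE 0.37, adjusted p = 0.00965). It was thus higher in both PC libraries on day 0 and higher in both TG libraries on day 3. LOC111895257 went the other way, at 3.79 and 7.72 CPM in TG and 1.11 and 0.963 CPM in PC on day 0 and 1.75 and 1.08 CPM and 9.04 and 11.2 CPM on day 3 (with a log2 change of -2.83, SE 0.48, adjusted p = 0.0155). Its day 0 log2 fold change was 2.47 and 1.86 without TG replicate 2. The day 3 call of LOC111895257 was lost without any 1 of the 4 day 3 libraries of TG and PC, with adjusted p-values of 0.0666 to 0.154, and that of LOC111901930 without TG day 3 replicate 2, PC replicate 1 or PC replicate 2, with 0.0506 to 0.142 (edgeR). Both were chosen after their values had been seen.

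**Figure D4:**
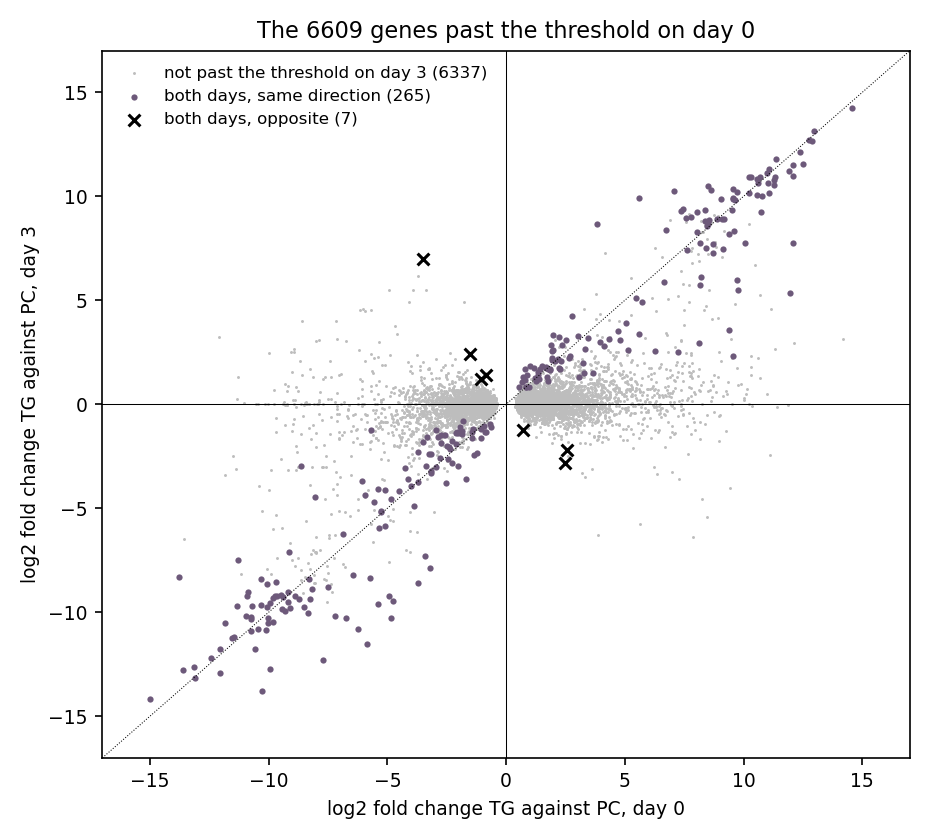
The log2 fold change of TG against PC on day 0 (horizontal) and on day 3 (vertical) for the 6609 genes past the threshold on day 0, with the diagonal as a dotted line. The 133 and 132 genes also past the threshold on day 3 in the same direction lie along the diagonal, most other genes lie near 0 on day 3, and crosses mark the 7 genes with opposite directions.

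Clemente, whose libraries are in neither arm of the comparison, stood on the TG side for most genes on day 0. Over the 4801 genes called at least 2-fold between TG and PC, its position was set as 0 at the PC mean and 1 at the TG mean on the log2 scale of CPM plus 0.1. It was nearer to TG for 80.5% of them, and for 48.8% it lay beyond TG. A further 19.4% lay between 0.75 and 1, 20.1% between 0.25 and 0.75, 5.77% between 0 and 0.25, and 5.999% beyond PC. Of the genes higher in TG 79.8% were nearer to TG, and of those lower in TG 81.4%. Among the 250 of these genes that also passed on day 3 in the same direction, 60.4% were nearer to TG on day 0, with 20.4% between 0 and 0.25 and 10% beyond PC. All positions share the TG and PC libraries that chose the genes, so they are a description with no test.

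Single genes showed each of these positions. Clemente stood at 5755 and 8136 CPM for LOC111879914 and at 42.2 and 42.8 CPM for LOC111921163, on the side of TG, and had 0 counts in both libraries for LOC111893293, LOC111878188 and LOC111891093, as TG had 0 to 2. For LOC111881685 it stood at 2803 and 823 CPM, above both TG libraries, and for LOC111921786 at 11334 and 9321 CPM, also above both. On the side of PC, it stood at 26.0 and 34.5 CPM for LOC111889655 and at 81.3 and 54.0 CPM for GeneID_111888072. For LOC111885899 it stood at 4835 and 5165 CPM, above both TG libraries and below both PC libraries.

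**Figure D5:**
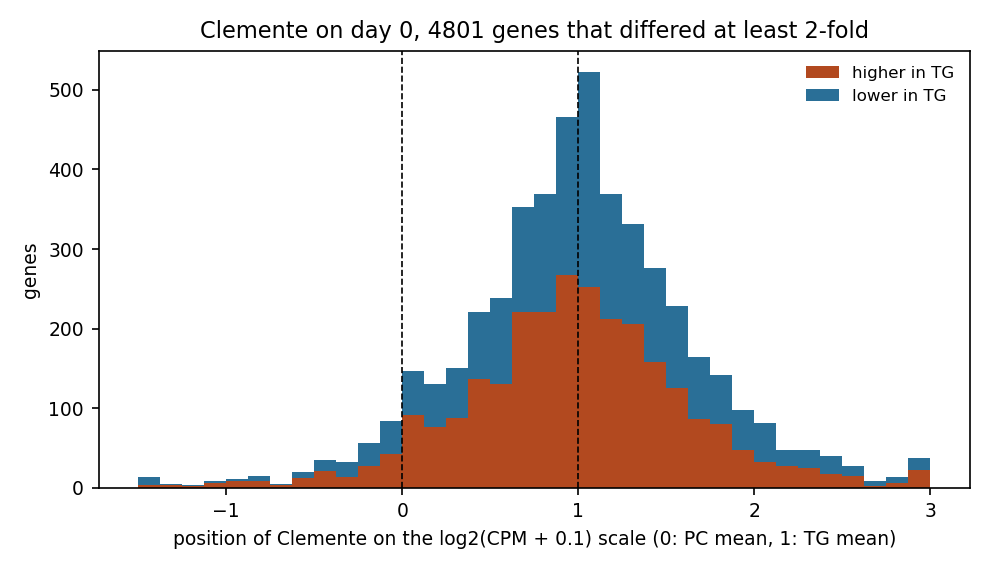
Number of genes by the position of Clemente between PC (0, left dashed line) and TG (1, right dashed line) on day 0, for the 4801 genes called at least 2-fold between TG and PC, with the end bars holding all genes beyond the axis. For both directions of change most genes lie on the TG side, and 80.5% of the genes lie nearer to TG.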

How the data were processed

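Midrib RNA was sequenced in paired ends, per the labels. Tools listed in the submitters' processing notes, with no roles, were STAR 2.4.0i, R 3.6.1, DESeq2, featureCounts, FastQC and Trim Galore. No source used here gives the build, the annotation or the strandedness of the counting. The authors deposited raw counts per gene. The 64021 rows were summed to 46150 GeneIDs, of which 40695 were in the RefSeq name table. Genes with low counts were removed with edgeR 4.0.16 (filterByExpr), counts were scaled by TMM, and 6 group means were fitted to the 12 day 0 and day 3 libraries with a robust quasi-likelihood model in R 4.3.3. The p-values were adjusted by Benjamini-Hochberg over 21757 genes, with a threshold of 0.05. Exact permutation of 2 against 2 libraries cannot go below 0.3333. CPM used TMM-scaled library sizes. The alternatives were another scaling, none, no count filter, DESeq2 1.42.0, fits without Clemente, GeneIDs on several rows left out, halved counts, a replicate block and each library left out. For the contrast of a single day the fit without Clemente held only the 4 TG and PC libraries of that day. For the difference of days it held the TG and PC libraries of both days. The fit was tested on simulated data.

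Named genes were taken from those past the threshold whose libraries did not overlap and whose mean was at least 20 CPM in the higher cultivar: the 8 largest changes and the 4 most counted genes in each direction. Planned lists by product name, protein motif and tissue marker could not be formed from the tables used here; the RNA classes took their place. Members and lists were chosen with earlier results of these data known. Columns of day 2, which were computed from day 0 and day 3, were not analysed here. Floors of 3 counts and intervals cover counting error only.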

Additional observations from a re-analysis of the deposited data

Results flagged for a closer look

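In each gene below the TG against PC log2 fold change differed between day 0 and day 3 in the model that held both days (edgeR quasi-likelihood test, adjusted p under 0.05 over all 21757 genes, 12.2% of which passed). The values are the day 0 minus the day 3 log2 fold change. Among the genes named for size of change they were 11.06 for LOC111908018, 8.64 for LOC111919125, 8.52 for LOC111881685 and 8.25 for LOC111919126. Among the most counted genes they were 3.37 for LOC111903698, 4.24 for LOC111921786, -1.68 for LOC111885899 and -1.41 for LOC111912961. Positive values belong to genes whose excess in TG was larger on day 0 and negative values to genes whose excess in PC was larger on day 0.

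Of the genes with opposite directions on both days the differences were -2.29 for LOC111882673, 1.94 for LOC111884699, -2.23 for LOC111894953, 5.30 for LOC111895257, -10.46 for LOC111899503, -3.94 for LOC111901930 and 4.75 for LOC111903273. LOC111899503 had 0 counts in PC on day 3, so the size of its value is set in part by the prior count. The same holds for LOC111908018 above and LOC111901956 below, with 0 counts in PC on day 0. In the runs of neighbouring genes they were 4.30 for LOC111883736, 7.71 for LOC111883707, 7.54 for LOC111883705 and 4.43 for LOC111883704 in the run that begins with LOC111883706, and 3.38 for LOC111911318, 3.96 for LOC111911306, 3.43 for LOC111911308 and 4.38 for LOC111911312 in the run that begins with LOC111911318. For the run of LOC111920811 they were 5.15 for LOC111920811, 6.001 for LOC111920812, 3.87 for LOC111920813 and 3.19 for LOC111920814. The run of LOC111919146 added 3.804 for LOC111919146, and that of LOC111887363 had 4.14 for LOC111887363, 5.06 for LOC111887371 and 5.93 for LOC111892410. The run of LOC111901956 had 6.46 for LOC111901956, 5.17 for LOC111901914, 6.44 for LOC111901912 and 2.42 for LOC111901911, and LOC111896412 stood at 3.77.

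Single libraries ended some of these calls (edgeR). LOC111908018 did not pass without PC day 0 replicate 1 or 2, TG day 3 replicate 1 or 2 or PC day 3 replicate 1 or 2, with adjusted p-values of 0.0571 to 0.132, nor without the count filter, nor in the fit without Clemente, nor with halved counts. LOC111919125 did not pass without TG day 0 replicate 2, PC day 0 replicate 2, TG day 3 replicate 1 or PC day 3 replicate 1, with adjusted p-values of 0.0532 to 0.0767, nor without the count filter. LOC111919126 did not pass without TG day 3 replicate 1, with an adjusted p of 0.0528. LOC111921786 did not pass without TG day 0 replicate 2, TG day 3 replicate 1 or 2 or PC day 3 replicate 1 or 2, with adjusted p-values of 0.0517 to 0.0811, nor without the count filter, nor in the fit without Clemente. LOC111885899 did not pass without PC day 3 replicate 1, with an adjusted p of 0.0618. LOC111912961 did not pass without TG day 3 replicate 1 or PC day 3 replicate 1, with adjusted p-values of 0.053 to 0.077. LOC111883736 did not pass without TG day 0 replicate 2, TG day 3 replicate 1 or PC day 3 replicate 1, with adjusted p-values of 0.0515 to 0.0645. LOC111883707 did not pass without TG day 0 replicate 2, TG day 3 replicate 1 or PC day 3 replicate 2, with adjusted p-values of 0.051 to 0.0669. LOC111920812 did not pass without TG day 0 replicate 1 or 2, TG day 3 replicate 1 or 2 or PC day 3 replicate 1 or 2, with adjusted p-values of 0.0543 to 0.129, nor without the count filter, nor in the fit without Clemente, nor with the replicate block. LOC111920814 did not pass without TG day 0 replicate 1, PC day 0 replicate 2, TG day 3 replicate 1 or 2 or PC day 3 replicate 1 or 2, with adjusted p-values of 0.0618 to 0.133, nor without the count filter, nor in the fit without Clemente. LOC111887363 did not pass without TG day 0 replicate 2, TG day 3 replicate 1 or 2 or PC day 3 replicate 1 or 2, with adjusted p-values of 0.106 to 0.151, nor without the count filter, nor in the fit without Clemente, nor with the replicate block. LOC111887371 did not pass without TG day 0 replicate 2, TG day 3 replicate 1 or 2 or PC day 3 replicate 1 or 2, with adjusted p-values of 0.0517 to 0.0829, nor without the count filter. LOC111892410 did not pass without TG day 0 replicate 2, TG day 3 replicate 1 or 2 or PC day 3 replicate 1 or 2, with adjusted p-values of 0.0576 to 0.0966, nor without the count filter, nor in the fit without Clemente. LOC111901911 did not pass without TG day 0 replicate 2, TG day 3 replicate 1 or PC day 3 replicate 1 or 2, with adjusted p-values of 0.0523 to 0.0724. LOC111896412 did not pass without TG day 3 replicate 1 or 2 or PC day 3 replicate 1, with adjusted p-values of 0.051 to 0.0608. The other genes listed passed for the difference of days under every alternative run. The separate day 0 and day 3 calls of the genes with opposite directions held less well. On day 0 LOC111884699 passed narrowly (adjusted p = 0.0484, edgeR). It did not pass in the 4-library fit (0.201), with the replicate block (0.057) or without a scaling factor (0.127, edgeR). In the 4-library fits LOC111894953 (0.145) and LOC111903273 (0.0685) did not pass on day 0, nor LOC111899503 on day 3 (0.12, edgeR). The cause of these differences between days was not tested.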

How the results depend on the processing

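Leaving out 1 library at a time gave 3813 to 6354 genes on day 0 (2251 to 3765 higher, 1562 to 2589 lower), 126 to 179 on day 3 (58 to 105 higher, 68 to 78 lower) and 1007 to 3886 for the difference of days (662 to 2557 and 345 to 1329). The share of genes with Clemente nearer to TG ran from 75.3% to 85.6%. The fit without Clemente gave 2873 genes on day 0 (1529 and 1344), 889 on day 3 (471 and 418) and 1765 for the difference (1037 and 728). DESeq2 gave 834 on day 3 (442 and 392) and 4448 for the difference (2519 and 1929), and 7842 on day 0. The cause was not tested. No fold change of a named gene that passed the threshold changed sign in the alternatives run.

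Replicate numbers did not pair the samples: the correlation of same-numbered deviations was -0.086 on day 0 and 0.01 on day 3. With the replicate block 6190 genes passed on day 0 (3559 higher and 2631 lower), 245 on day 3 and 2395 for the difference. Weakly read genes limit what these libraries show: 11.6% of the genes under 1 CPM passed on day 0.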
